A study of Homo sapiens with 4 samples.

Results

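Transcripts that differed after siRNA against Pontin were compared with the arm titled sicon in SK-BR-3 cells, in both shRNA backgrounds. The comparison used all 4 of the 4 arrays of the study, chosen by their titles. SK-BR-3 is an established human breast cancer line with amplified HER2, and the labels give it a mutant p53. All 4 groups came from cells selected with puromycin for a plasmid, and each group was 1 array: sicon with control shRNA, sicon with p53 shRNA, siPontin with control shRNA, and siPontin with p53 shRNA. The control plasmid is called control shRNA in one label and an empty vector in another. The labels do not spell out sicon, and leave unstated whether each arm was selected on its own. RNA was taken 24 h after the siRNA, and 200 ng of total RNA went on each array.

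Pontin, the product of RUVBL1, is an AAA+ ATPase that forms rings with its paralogue Reptin, the product of RUVBL2. The ring is a shared core of the INO80, SRCAP and TIP60 complexes, which slide nucleosomes, exchange histone H2A variants or acetylate histones. With the R2TP cochaperone it also helps to assemble snoRNPs, RNA polymerase II and the PIKK kinases. Pontin is abundant in many tumours, and in cell lines its loss has been tied to slower growth.

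There was no replicate within a group, so calls rest on size and no p-value is given for a single gene. The siPontin signal was divided by the sicon signal within each shRNA background, which gave a control shRNA pair and a p53 shRNA pair that share no array. A gene is called lower or higher here where both log2 ratios have the same sign and both are at least 1.5-fold, 0.585 in log2. The distance between the pair ratios is the only measure of error. It takes in array noise and any true difference between the backgrounds together. Signals are MAS5 values on a linear scale, and ratios are log2 of siPontin over sicon. Each gene is shown by its brightest probe set, a group of short oligonucleotides on the array, and genes with a mean signal of at least 110 over the 4 arrays are called bright.

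RUVBL1 was lower in both backgrounds. Its signal went from 477.7 to 127.4 in the control shRNA pair and from 398.2 to 65.8 in the p53 shRNA pair, log2 ratios of -1.91 and -2.60. Both siPontin arrays lay far below both sicon arrays on the single probe set that names this gene. RUVBL2 was not called: with control shRNA it stood at 2428.2 without and 2770.6 with siPontin, and with p53 shRNA at 2574.7 and 2723.3, pair ratios of 0.19 and 0.08. Its mean ratio was 0.14 on the deposited scale and from 0.13 to 0.31 in the other alternatives, except for -0.04 with median centring, which moved the median bright gene to -0.18.

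Epithelial markers fitted the labelled line, with 11 of the 12 luminal markers found at a mean signal of at least 110. Their summed signal ran from 42743 to 48561 over the 4 arrays, and the keratin gene KRT19 was the brightest. None of the 5 basal, 10 immune or 8 endothelial markers with a probe set reached that level, although 9 basal and 11 immune markers were listed. In a longer list of 11 basal genes, 1 of the 7 with a probe set did. Of 15 stromal markers FN1 and COL1A1 reached it. The stromal sum lay between 1468.2 and 1709.9, and its 2 groups overlapped. The authors had scaled every array to a trimmed mean of 150.02, while the median over all probe sets was 15.9, 16, 16.5 and 19.6 in the order of groups given above. On the array with both knockdowns 18 hybridization control probe sets averaged 1.42 times their level on the array with neither. They averaged 1.04 times that level with p53 shRNA alone and 1.14 times with siPontin alone. The part of these array differences in the ratios of the p53 shRNA pair was not tested.

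Promoters of 3 called genes are shown first as examples of the letters counted below. TATAAA and GGAATG were in a larger share of lower than of bright genes, while shares of CCAAT lay closer. GGGCGG was in a smaller share of lower genes, although UBA6, shown for it, was called lower. H2AC6 encodes a replication-dependent histone H2A, CCN2 a matricellular protein and UBA6 a ubiquitin-activating enzyme. The windows are the 250 bases upstream of the RefSeq start site on GRCh38.p14: chr6:26123922-26124171 on the + strand for H2AC6, chr6:131951373-131951622 on the - strand for CCN2, and chr4:67701156-67701405 on the - strand for UBA6. Capitals mark TATAAA and CCAAT (or its reverse complement ATTGG) in H2AC6, TATAAA and GGAATG in CCN2, and the GC box GGGCGG (as its reverse complement CCGCCC) in UBA6.
H2AC6: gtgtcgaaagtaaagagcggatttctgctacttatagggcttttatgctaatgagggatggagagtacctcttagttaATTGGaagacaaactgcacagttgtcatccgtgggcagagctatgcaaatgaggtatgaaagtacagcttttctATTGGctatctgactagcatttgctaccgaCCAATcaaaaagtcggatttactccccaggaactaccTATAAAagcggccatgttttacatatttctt
CCN2: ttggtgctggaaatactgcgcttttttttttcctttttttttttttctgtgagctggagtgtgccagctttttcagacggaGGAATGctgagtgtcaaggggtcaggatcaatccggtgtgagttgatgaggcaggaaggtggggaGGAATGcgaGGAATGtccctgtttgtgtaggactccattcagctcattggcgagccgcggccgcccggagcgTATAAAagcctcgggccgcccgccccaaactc
UBA6: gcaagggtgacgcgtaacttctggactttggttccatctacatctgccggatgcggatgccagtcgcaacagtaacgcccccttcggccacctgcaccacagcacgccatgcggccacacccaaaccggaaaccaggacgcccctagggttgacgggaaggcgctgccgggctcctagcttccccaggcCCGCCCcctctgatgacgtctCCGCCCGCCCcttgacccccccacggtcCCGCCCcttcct
H2AC6 held 1 TATAAA and 3 CCAAT boxes, CCN2 held 1 TATAAA and 3 copies of GGAATG, the core of TEAD sites, and UBA6 held 4 GC boxes, of which a pair overlap.

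Of the bright genes called lower, 70 of 85 had an upstream window in the RefSeq table, as did 13 of the 14 called higher and 6543 of all 7752 bright genes. TATAAA was found on either strand in 12 of the 70 lower genes (17.1%), in 4.86% of bright genes and in 11.1% of all 27305 windows in the table. None of the 13 higher genes had it. The 12 were RUVBL1, H2AC6, CCN2, DNAJC12, CMTR2, GRAMD1C, F3, SELENOP, SRSF11, IVL, TNFSF10 and ID1. The GC box GGGCGG was found in 50% of lower, 69.2% of higher and 69.8% of bright genes. Base composition moved with these letters, as the median GC content was 57.6% in lower, 68% in higher and 65.2% in bright genes. GGAATG was in 10 of the 70 lower genes (14.3%), in 8.85% of bright genes and in 11.9% of all windows. The AP-1 letters TGANTCA were in 8.57%, 3.52% and 6.6%. CCAAT was in 42.9% of lower and 36.9% of bright genes, the E-box CACGTG in 10% and 9.66% and the ETS letters CCGGAAG in 20% and 18.3%. The letters of the NRF1 site, GCATGCGC, were in 2.86% and 5.18%, and those of the cAMP response element, TGACGTCA, in 0% and 3.22%. AAGATGGCG, the YY1 site, was in 0% and 1.09%. These are counts of letters in a window and carry no test.

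Lower calls were 6.07 times as many as higher calls among bright genes. Of 7752 bright genes, 85 were called lower (1.1%), 14 higher (0.181%) and 1, GOLGA8N, passed 1.5-fold in both pairs in opposite directions (0.0129%). The control shRNA pair alone had 114 bright genes lower and 49 higher by 1.5-fold, and the p53 shRNA pair 259 and 127. Thus 74.6% of the genes lower in the first pair and 32.8% of those lower in the second passed in both. For higher genes these shares were smaller, 28.6% and 11%. Of bright genes the share called lower among all calls was 85.9% on the deposited scale. Quantile scaling gave 85.3% and cyclic loess 85.6%. It was 97.5% with median centring, which put the median bright gene at -0.18 and left 3 higher calls. With the mean over all probe sets of a gene, dim ones included, the balance turned, to 67 lower and 83 higher calls (44.7% lower). A fit with limma that took the pairs as replicates called 0 bright genes at an adjusted p of 0.05, with a smallest adjusted p of 0.336, while 893 passed at an unadjusted p of 0.05.

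**Figure D1:**
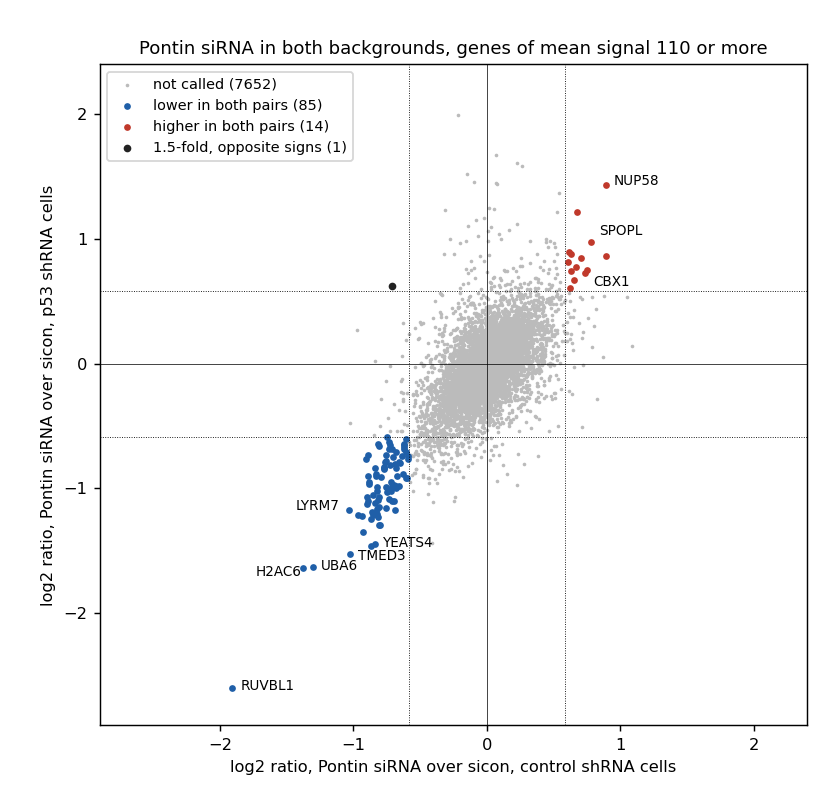
Log2 ratio of siPontin over sicon for each bright gene in the control shRNA pair (x) and the p53 shRNA pair (y), 1 point per gene, with the 1.5-fold limits as dotted lines. RUVBL1 sits alone at the lower left, and the 85 genes called lower outnumber the 14 called higher.

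In dim genes the balance of lower and higher calls depended on the scaling. Over all 12056 genes kept, down to a mean signal of 15.36, 149 were lower (1.24%), 140 higher (1.16%) and 100 opposite (0.829%). The 4304 genes between that level and 110 gave 64 lower, 126 higher and 99 opposite calls as deposited. They gave 107 lower and 61 higher with quantile scaling, 104 and 63 with cyclic loess, and 132 and 51 with median centring. The correlation across genes of the pair ratios was 0.12 there. It was 0.52 for signals of 110 to 300, 0.68 for 300 to 1000 and 0.70 above 1000. Genes are not independent replicates, and the pairs share the cell line and the siRNA. The SD of the pair difference divided by 2 went the other way, 0.36, 0.15, 0.11 and 0.08. The 2044 brightest genes held 16 lower and 0 higher calls.

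**Figure D2:**
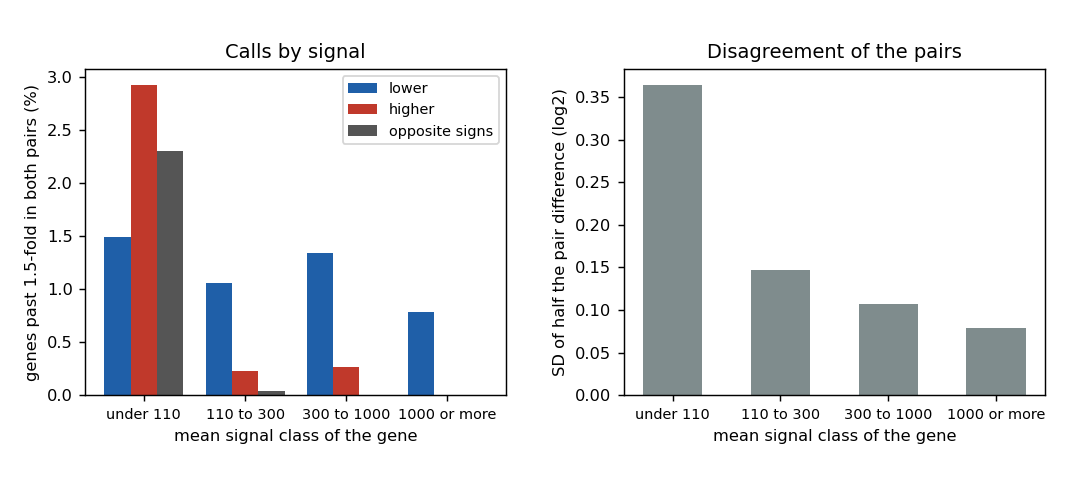
Left, percent of genes past 1.5-fold in both pairs, lower, higher or with opposite signs, by mean signal class. Right, SD of the pair difference divided by 2 in the same classes, which goes from 0.36 below a signal of 110 to 0.08 above 1000, while opposite calls, 99 in the dimmest class, come to 1 in the others.

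Across all bright genes the ratios of the pairs correlated with Pearson's r = 0.61, without a p since genes share arrays. Without RUVBL1 r was 0.60, and over uncalled genes alone it was 0.54. Ratios were on the same side of 0 in 70.6% of bright genes, 34.3% above and 36.3% below in both. These shares are the background for every group described further on. In 84 of the 85 lower genes both siPontin signals lay below both sicon signals, as they did in 25.6% of bright genes. In 13 of the 14 higher genes both lay above, as they did in 22.5%. The exceptions were CCN2 and PSAT1, whose siRNA arms overlapped. The calls were made on these same signals, so the separation follows largely from the rule and is no further support for them.

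Ratios were larger in the p53 shRNA pair for 74 of the 85 lower genes (87.1%) and 11 of the 14 higher genes (78.6%), against 60.2% of bright genes. The median log2 ratio of lower genes was -0.77 in the control shRNA pair and -0.97 in the p53 shRNA pair, and that of higher genes 0.67 and 0.84. RUVBL1 itself had the larger ratio there. Its deeper knockdown, the p53 shRNA and the higher median and control signals of the siPontin array in that pair cannot be told apart. Only RUVBL1, H2AC6, UBA6, LYRM7 and TMED3 were at least 2-fold lower in both pairs on the deposited scale. The labels give no siRNA sequence, and the series holds 1 siRNA label against Pontin, so effects of losing Pontin and of the siRNA on other transcripts cannot be told apart.

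**Figure D3:**
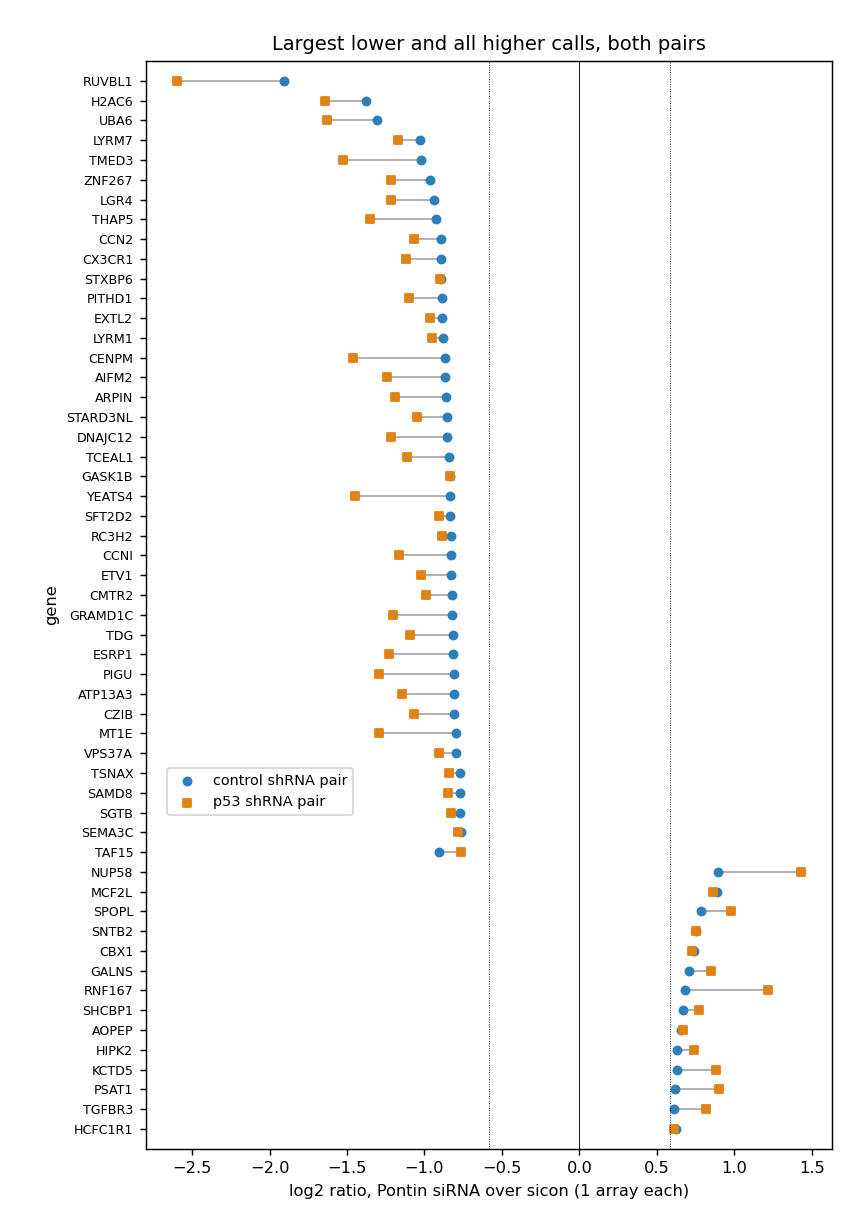
Log2 ratio of siPontin over sicon in the control shRNA pair and the p53 shRNA pair for the 40 largest lower calls and all 14 higher calls, 1 line per gene joining the 2 pair values and dotted lines at 1.5-fold. Most lower genes lie further from 0 in the p53 shRNA pair.

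The called genes were grouped by textbook role after their values were seen, so the groups describe the calls and carry no test. Bright genes were not counted by role, so no share called stands beside the 1.1% lower and 0.181% higher of all bright genes. Lower calls were 85.9% of all bright calls, so 0 higher calls in a role is no result about that role. Genes of chromatin and transcription made up 14 of the lower and 3 of the higher calls. H2AC6, whose promoter is printed above, went from 541.5 to 208.6 and from 453.0 to 145.3. Both siPontin signals lay below both sicon signals, log2 ratios of -1.38 and -1.64. Its probe set is of a type that can bind several transcripts, and no value was left for it without such types. YEATS4, a YEATS-domain reader that sits in the SRCAP and TIP60 complexes with Pontin, went from 327.2 to 183.5 and from 340.3 to 124.9, ratios of -0.83 and -1.45. CENPM, a constitutive centromere protein, went from 311.0 to 170.2 and from 294.4 to 107.1. Its ratios of -0.87 and -1.46 were among the widest apart. The zinc-finger gene ZNF267 was at -0.96 and -1.21, and THAP5, of the THAP-domain proteins, at -0.92 and -1.35.

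The group held 9 other lower genes. TAF15, an RNA-binding protein of the FET family, went from 496.7 to 265.4 and from 499.6 to 294.2, ratios of -0.90 and -0.76. TDG, the thymine DNA glycosylase, was brighter, at 1481.2 and 841.5, then 1530.5 and 718.0. TAF13, a TFIID subunit, was the brightest of the group, and went from 2267.1 to 1418.9 and from 2048.7 to 1096.7. TCEAL1 was at -0.84 and -1.12, the ETS factor gene ETV1 at -0.83 and -1.02, and CGGBP1, a CGG-repeat binding protein gene, at -0.76 and -0.73. ID1, an inhibitor of basic helix-loop-helix factors, had ratios of -0.75 and -0.59, the kinase gene HIPK1 -0.65 and -0.80, and ZNF703, amplified in some luminal tumours, -0.63 and -0.74.

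Of the ubiquitin genes 5 were lower and 4 higher. UBA6, a second ubiquitin E1 that also activates FAT10, went from 883.3 to 357.8 in the control shRNA pair and from 874.1 to 282.9 in the p53 shRNA pair, ratios of -1.30 and -1.63. After RUVBL1 and H2AC6 it had the largest smaller-pair ratio of the lower genes, and its 3 further bright probe sets passed the same rule. They gave -1.17 and -1.24, -1.001 and -1.44, and -1.25 and -1.64. Of the 3 further ones under a signal of 110, one lay above 0, at 0.50 and 0.91. COPS4, of the COP9 signalosome that removes NEDD8 from cullins, went from 1484.7 to 882.6 and from 1522.9 to 746.6. CUL4B, a cullin scaffold, had ratios of -0.61 and -0.92, the CUL3 adaptor gene KLHL9 -0.66 and -0.79, and CBL, an E3 ligase for receptor tyrosine kinases, -0.60 and -0.71.

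RNA genes gave 8 lower and 0 higher calls. SRSF11, an SR-like splicing protein, was bright and went from 2866.0 to 1735.4 and from 3222.2 to 1839.1. Its ratios of -0.72 and -0.81 lay close together. RC3H2, a roquin that promotes mRNA decay, had -0.83 and -0.89, and the cap methyltransferase gene CMTR2 -0.82 and -0.99. TSNAX encodes translin-associated factor X, a nuclease of the complex that clears passenger strands from the RNA-induced silencing complex. It went from 1012.1 to 592.7 and from 1008.8 to 564.1, ratios of -0.77 and -0.84. The epithelial splicing regulator gene ESRP1 was at -0.81 and -1.23, the RNA-binding protein gene LARP4 at -0.59 and -0.76, and RIOK3, an atypical kinase, at -0.60 and -0.92. MRPS10 of the mitochondrial ribosome was at -0.59 and -0.74.

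Mitochondrial genes gave 4 lower calls. LYRM7, an assembly factor that hands the Rieske iron-sulfur protein to respiratory complex III, went from 393.8 to 192.8 and from 376.0 to 166.8. Its ratios of -1.03 and -1.17 made it one of the genes 2-fold lower in both pairs. LYRM1, another LYR-motif protein, went from 1051.6 to 571.4 and from 735.3 to 380.9, and AIFM2 (FSP1), which regenerates reduced coenzyme Q, from 246.1 to 134.7 and from 195.6 to 82.6. MIGA1, a mitochondrial fusion protein, was at -0.68 and -0.83.

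Lipid and sterol genes gave 8 lower and 0 higher calls. SPTLC1, a subunit of serine palmitoyltransferase at the start of sphingolipid synthesis, went from 2011.7 to 1190.0 and from 2031.6 to 911.8. SAMD8, an enzyme related to the sphingomyelin synthases, and SGMS2, one of them, were at -0.77 and -0.85, and at -0.62 and -0.65. The sterol-transfer gene GRAMD1C was at -0.82 and -1.21, and STARD3NL, which tethers endosomes to the endoplasmic reticulum, at -0.85 and -1.05. PIGU, of the GPI transamidase that attaches lipid anchors to proteins, went from 730.4 to 416.4 and from 646.6 to 263.7. THRSP, a lipogenic gene amplified in some breast tumours, was at -0.89 and -0.73, and IMPA1, inositol monophosphatase, at -0.68 and -0.71.

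Membrane traffic gave 10 lower and 0 higher calls. TMED3, a p24 cargo receptor of the early secretory pathway, went from 1583.8 to 779.2 and from 1439.0 to 500.2, ratios of -1.02 and -1.52. It was the brightest gene at least 2-fold lower in both pairs. ATP13A3, a polyamine transporter of endosomes, went from 1408.5 to 804.4 and from 1644.7 to 743.8. SFT2D2 was at -0.83 and -0.90, the SNARE regulator gene STXBP6 at -0.89 and -0.90, and VPS37A of ESCRT-I at -0.79 and -0.91. BLOC1S2, of the lysosome-positioning complexes, was at -0.69 and -1.17, ATP6V1D of the vacuolar proton pump at -0.70 and -0.97, and SCOC at -0.69 and -0.81. TMEM38B, a potassium channel of the endoplasmic reticulum, was at -0.74 and -1.01, and REEP3 at -0.61 and -0.61.

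Signals, receptors and matrix proteins gave 14 lower and 2 higher calls. CCN2 went from 146.5 to 78.7 with control shRNA and from 346.4 to 164.9 with p53 shRNA, ratios of -0.90 and -1.07. Its siPontin signal with p53 shRNA was above its sicon signal with control shRNA, so the groups overlapped. F3, tissue factor, went from 385.9 to 228.8 and from 537.2 to 313.1, and THBS1, thrombospondin 1, from 867.4 to 525.3 and from 1150.2 to 733.9. Like CCN2, both had higher signals with p53 shRNA in each siRNA arm. LGR4, an R-spondin receptor, went from 937.3 to 489.6 and from 1241.5 to 534.1, ratios of -0.94 and -1.22.

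Among the other signalling genes EGF, a ligand of the ERBB receptors, went from 377.1 to 215.0 and from 342.4 to 216.3. It was the only ligand of that family that was bright. TNFSF10, the death ligand TRAIL, was at -0.74 and -0.68, SEMA3C, a secreted semaphorin gene, at -0.77 and -0.79, and the chemokine receptor gene CX3CR1 at -0.89 and -1.12. SELENOP, a secreted selenium carrier, went from 1841.6 to 1093.4 and from 1932.1 to 971.4. PRNP, the prion protein gene, was the brightest of the lower genes and went from 3389.5 to 2190.4 and from 3320.0 to 1799.4. CXADR, an adhesion receptor, was at -0.66 and -0.98, EXTL2, a glycosyltransferase of heparan sulfate synthesis, at -0.89 and -0.97, and P4HA2, a collagen prolyl hydroxylase subunit, at -0.73 and -1.09. PTGFRN was at -0.62 and -0.66.

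The remaining lower genes included cochaperones, enzymes and cytoskeletal proteins. CCNI, an atypical cyclin, went from 2909.0 to 1640.9 and from 3767.9 to 1677.4. DNAJC12, a J-domain cochaperone, went from 628.5 to 348.3 and from 621.5 to 268.1, and SGTB and CDC37L1, also cochaperones, were at -0.77 and -0.83, and at -0.73 and -0.63. MAT2B, the regulatory subunit of methionine adenosyltransferase, was at -0.68 and -0.98, and GNE, of sialic acid synthesis, at -0.70 and -0.74. ARPIN, an inhibitor of the Arp2/3 complex, was at -0.86 and -1.19, IVL, involucrin, at -0.72 and -0.95, the microtubule gene MAP9 at -0.71 and -0.69 and the pseudokinase gene PEAK1 at -0.81 and -0.65. PITHD1, GASK1B, CZIB, PPP1R11, UBLCP1, UMAD1, C2orf68, SMIM14 and TMEM45A had ratios from -0.62 to -0.89 in the control shRNA pair and from -0.67 to -1.10 in the p53 shRNA pair.

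NUP58, a nuclear pore gene, had the largest higher call. Its signal went from 356.4 to 662.3 and from 273.8 to 738.2, log2 ratios of 0.89 and 1.43. The next brightest probe set of the gene gave 0.01 and -0.09, so the difference rests on 1 probe set. SPOPL, a paralogue of the CUL3 adaptor SPOP, went from 598.5 to 1030.8 and from 516.3 to 1018.7, and its other bright probe set gave 1.17 and 0.76. MCF2L went from 285.2 to 528.9 and from 285.9 to 519.7. CBX1, the heterochromatin protein HP1 beta, went from 567.5 to 947.4 and from 549.3 to 908.3, ratios of 0.74 and 0.73.

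Of the other higher genes SNTB2, a syntrophin, was at 0.75 and 0.75 and its next 2 probe sets by brightness were at 0.40 and 0.55, and at 0.48 and 0.55. RNF167, an E3 ligase of lysosomes, was at 0.68 and 1.22, GALNS, a lysosomal sulfatase gene, at 0.71 and 0.85, and KCTD5, a CUL3 adaptor, at 0.63 and 0.88. SHCBP1 was at 0.67 and 0.77, AOPEP, an aminopeptidase gene, at 0.66 and 0.67, HIPK2 at 0.63 and 0.74, and HCFC1R1 at 0.63 and 0.61. TGFBR3, betaglycan, was at 0.61 and 0.82. PSAT1, of serine synthesis, went from 709.3 to 1087.4 and from 375.0 to 699.0, and its groups overlapped. With median centring 3 of the 14 were still called, NUP58, SPOPL and RNF167.

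Families and complexes of the called genes were then listed, also after values were seen, to place partners beside them. Each was drawn up from a called gene, so at least 1 call in each was set beforehand. Of all bright genes 1.1% were called lower and 0.181% higher, so a lack of further calls is no result about the partners. In most, no other member was called. COPS4 was the only one called of 9 bright COP9 subunits, with 4 above and 3 below 0 in both pairs, and GPS1 of the same complex was at 0.60 and 0.33. CUL4B was the only one of 6 cullins, and its close paralogue CUL4A was at 0.01 and -0.13. PIGU was the only one of 5 GPI transamidase subunits, VPS37A of 7 ESCRT-I subunits, TAF13 of 13 TFIID subunits, CENPM of 11 centromere proteins and TMED3 of 8 p24 proteins. TMED10, also a p24 protein, was at -0.27 and -0.52. With quantile, loess and median scaling each of these families still had exactly 1 call. With the mean over all probe sets of a gene the COP9, cullin and p24 families had none.

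Close paralogues and partners also differed on their brightest probe sets. RC3H1 was at 0.14 and 0.05 beside its lower paralogue RC3H2, and TSN, the partner of TSNAX, at 0.12 and 0.01. Averaged over probe sets, both roquin and both translin genes were below 0 in both pairs, as both translin genes were without cross-hybridizing types. SPOP was at -0.23 and -0.22 beside the higher SPOPL. HIPK1 was lower and HIPK2 higher, while HIPK3 was at 0.15 and 0.17. Neither HIPK call was made with the mean over probe sets. Of the HP1 genes CBX5 was at 0.20 and 0.30 and CBX3 at -0.14 and -0.18 beside CBX1, but all 3 were above 0 without cross-hybridizing types. UBE2Z, the E2 that works with UBA6, was at 0.04 and 0.05, and UBA1, the general E1, at 0.35 and 0.12. BIRC6, which receives ubiquitin from UBA6, was at -0.34 and 0.37. ID2 was at -0.05 and 0.30 and ID3 at 0.03 and 0.14, while ID1 was lower. ID1, just inside the limit, was not called with quantile or loess scaling.

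Metallothioneins, small cysteine-rich proteins that hold zinc and copper, lay below 0 where they were bright. In each pair all 6 bright members were below 0. Their median ratio was -0.53, beside -0.003 over all bright genes. MT1E went from 564.0 to 324.4 and from 910.1 to 371.9, and MT1F from 1253.6 to 816.5 and from 1648.4 to 1027.7, and both were called. MT1H was at -0.52 and -0.59, MT1G at -0.49 and -0.51, MT2A at -0.43 and -0.31 and MT1X at -0.38 and -0.21. All 6 probe sets were of a type that can bind several family members, so their signals are not independent, and a further MT1E probe set gave 0.29 and -0.08. The bright members were below 0 with each scaling tried. With the mean over probe sets 1 of them was called. MT3, dim at a mean signal of 23.2, was at 1.24 and 0.65.

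Sphingolipid genes had 3 lower calls among 18 bright members, SPTLC1, SAMD8 and SGMS2, with 10 members below and 3 above 0 in both pairs. With the mean over all probe sets of a gene the family had 1 lower call. SGMS1, a sphingomyelin synthase, was at -0.36 and -0.46. SPTLC2, the partner of SPTLC1, was at -0.02 and -0.07, and ORMDL3, which restrains the enzyme, at 0.26 and 0.32. In the proton pump ATP6V1D was called of 15, and ATP6AP1 was at -0.44 and -1.04. LYRM7 and LYRM1 were called of 10 LYR-motif genes, beside SDHAF3 at -0.35 and -0.62. NUP58 was called of 21 nucleoporins, and 0 were called with the mean over probe sets.

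**Figure D4:**
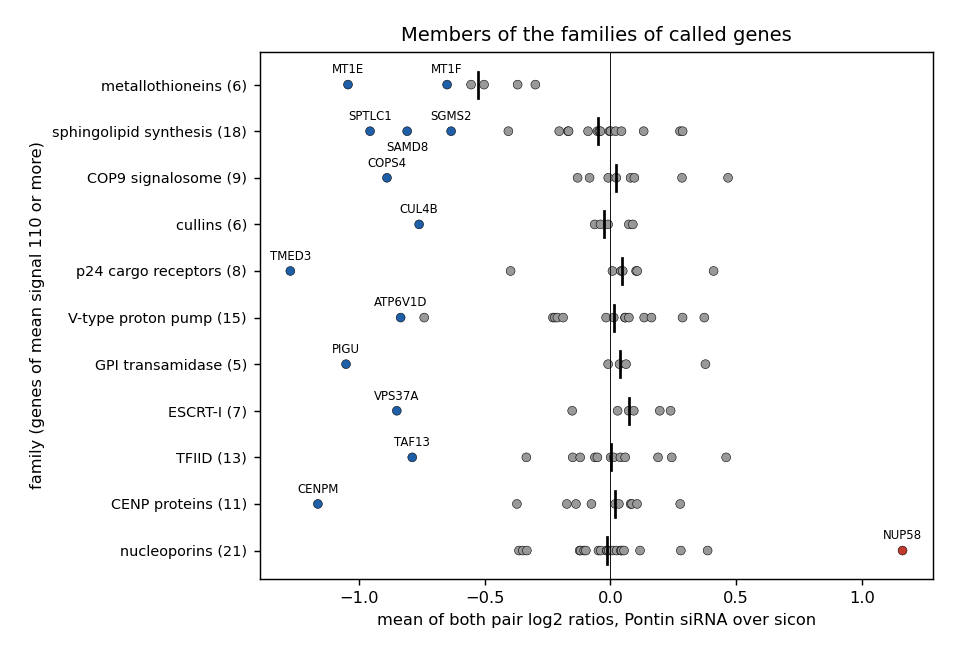
Mean log2 ratio of the pairs for each bright member of 11 families and complexes of called genes, 1 point per gene, with the family median as a bar, lower calls in blue and higher calls in red. Called members were picked by the 1.5-fold rule, and not all partners lie near 0. ATP6AP1, which was not called, lies at -0.74, beyond the called SGMS2 at -0.63. The 6 metallothioneins all lie below 0.

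The complexes that hold Pontin were read from lists of their subunits. In the SRCAP and TIP60 list YEATS4 was the only call of 19 bright members, with 10 below and 5 above 0 in both pairs. EPC2, an enhancer of polycomb protein of TIP60, was at -0.65 and -0.54, and EP400, the ATPase, at -0.21 and -0.55. The list's median was -0.09, but 0.06 with the mean over all probe sets of a gene. In the INO80 list 0 of 11 were called and 5 were below 0 in both pairs, INO80C at -0.39 and -0.18 among them. Of all bright genes 1.1% were called lower and 0.181% higher, so 0 calls in a list, here and further on, say little about its members. No call was made for R2TP and prefoldin-like genes, 0 of 9. The lists of R2TP clients gave 0 of 12 snoRNP genes, 0 of 14 RNA polymerase II assembly genes and 0 of 6 PIKK and TTT genes. Among these ZNHIT3, a snoRNP assembly factor, was at -0.49 and -0.70, POLR2E, a polymerase subunit, at 0.38 and 0.68, and the kinase gene MTOR at -0.19 and -0.64.

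Of the chromatin lists the replication-dependent histones lay to one side. H2AC6 was called of 7 bright members, 6 of which were below 0 in both pairs, with H1-2 at -0.41 and -0.53. The median was -0.25 and stayed below -0.23 in each alternative. Without cross-hybridizing types only 3 bright members were left, and H2AC6 was not among them. Chromobox genes and other readers had 8 of 15 members above and 3 below 0, with CBX1 called. Among SWI/SNF and CHD remodellers 0 of 12 were called. Of splicing genes 16 of 29 were below and 6 above 0, with SRSF11 called and SRSF6 at -0.43 and -0.32.

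Protein quality genes lay near 0 or slightly above it. Heat shock and chaperone genes had 0 calls of 22, with 14 above and 5 below 0, HSPB1 at 0.35 and 0.49 and CDC37 at 0.35 and 0.39. The proteasome list had 0 calls of 27, with 12 above and 5 below, and PSMC3 was at 0.39 and 0.29. The integrated stress and unfolded protein list had 0 calls of 16, with 9 above and 5 below. Their medians of 0.06, 0.03 and 0.09 were -0.12, -0.15 and -0.09 with median centring, which moved the median of all bright genes to -0.18. Without cross-hybridizing probe set types the proteasome and stress medians were -0.009 and -0.018.

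Metabolic and stress lists gave few calls. NRF2 targets had 8 of 14 members below and 2 above 0, with HMOX1 at -0.34 and -0.53, GCLM at -0.26 and -0.58 and SLC7A11 at -0.52 and -0.17, and 0 calls. Cholesterol and fatty acid genes had 10 of 17 below 0 and SREBF1, their transcription factor, at -0.33 and -0.52, with 0 calls. In the serine and one-carbon list PSAT1 was higher while PSPH, the next enzyme, was at -0.39 and -0.42. Of 26 hypoxia and glycolysis genes 0 were called, as were 0 of 40 respiratory subunits. LYRM7 was the 1 call among 36 respiratory assembly genes.

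Growth and cycle lists had no call in either direction: 0 of 33 G1/S genes, 0 of 29 G2/M genes and 0 of 6 CDK inhibitor and RB genes. In the first, TK1, thymidine kinase, was at 0.49 and 0.53 and CCNE2, a cyclin E, at -0.38 and -0.51. In the second, CDC25C was at 0.58 and 0.26 and TTK, a spindle kinase, at -0.41 and -0.61. YAP and TEAD targets had CCN2 and F3 called of 11, with 7 below and 3 above 0, and LATS2, a kinase that restrains YAP, at 0.53 and 0.54. Among BCL2 family genes 0 of 11 were called, MCL1 at -0.26 and -0.41 and BCL2L11 (BIM) at 0.31 and 0.64. Wild-type p53 targets had 0 calls of 16, with ZMAT3 at 0.44 and 0.98.

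Lists that bear on a transfected small RNA were also read. Of 15 bright genes of the small RNA machinery TSNAX was called, AGO2, which cleaves siRNA targets, was at -0.43 and -0.43 and AGO4 at 0.49 and 0.39. Of 34 listed RNA sensor and interferon genes 8 were bright and 0 were called, with the sensor gene IFIH1 at 0.20 and 0.06 and the interferon-induced ISG15 at -0.19 and -0.22. Of 4 bright NF-kB targets 0 were called, although 3 were above 0 in both pairs, with NFKBIA at 0.40 and 0.78 and TNFAIP3 at 0.40 and 0.65.

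The other lists gave little to describe. ERBB and luminal genes had 1 call of 26, ESRP1. Wnt receptor and feedback genes had 1 of 11, LGR4, and TGF-beta receptors and SMADs had TGFBR3 called of 14. There were 0 calls among 15 ubiquitin E2 genes, 24 ribosome biogenesis genes, 16 immediate early genes, 23 DNA repair genes, 10 membrane effector genes and 12 housekeeping genes. UBA6 was the 1 call of 6 ubiquitin-like E1 genes.

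Other probe sets of the called genes were read as a check on the brightest. Among lower genes 31 had 43 further bright probe sets, of which 37 lay below 0 in both pairs and 15 passed the 1.5-fold rule. One, of RIOK3, lay above 0, at 0.61 and 1.03, while another of RIOK3 gave -1.27 and -1.25. For 24 lower genes no other probe set exists with that symbol alone. The brightest probe set was of a type that can bind several transcripts for 26 of the 85 lower and 4 of the 14 higher genes. Among higher genes 5 had 7 further bright probe sets, 5 of them above 0 and 1 passing. Probe sets under a signal of 110 agreed less, with 47 of 90 on the same side for the lower genes. Further bright probe sets near 0 were found for PTGFRN (-0.05 and 0.11), ESRP1 (-0.17 and 0.04), AOPEP (0.10 and -0.12) and TMEM38B (0.04 and -0.11), the last beside one at -0.45 and -1.06. CGGBP1 had further ones at -0.01 and 0.43, and at -0.23 and -0.37. Others lay below 0 but short of the limit, among them those of ATP13A3 (-0.07 and -0.35), PRNP (-0.18 and -0.26) and TDG (-0.40 and -0.12). So did those of THBS1 (-0.26 and -0.36), MAP9 (-0.35 and -0.25), CBL (-0.16 and -0.52) and UBLCP1 (-0.30 and -0.47). MRPS10 had them at -0.35 and -0.23, and at -0.26 and -0.12. RC3H2 had one at -0.09 and -0.14, beside one that passed at -0.64 and -0.75. For the higher gene MCF2L the brightest further one was at 0.35 and 0.53.

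**Figure D5:**
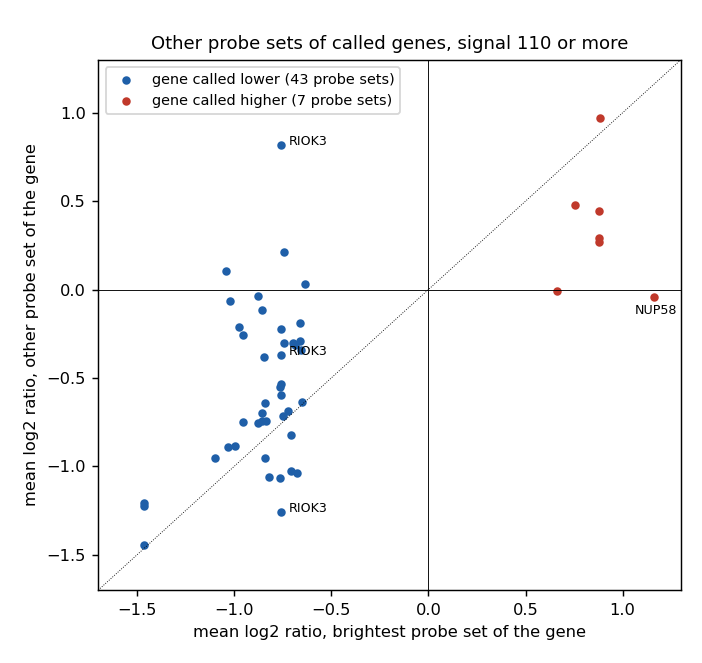
Mean log2 ratio of the pairs for the brightest probe set of each called gene (x) and for each further probe set of that gene with a mean signal of at least 110 (y). Points near the diagonal agree, while further probe sets of NUP58, AOPEP, CGGBP1, ESRP1, MT1E, PTGFRN, TMEM38B and RIOK3 include one each near or across 0. Those of RC3H2, MRPS10, ATP13A3, PRNP, TDG, THBS1, MAP9, CBL and UBLCP1, among others, include ones below 0 that fall short of the brightest.

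The 1.5-fold limit cut through a continuous range. Just inside it were ID1, MRPS10, LARP4, RIOK3, CBL and REEP3, whose smaller log2 ratios had sizes of 0.59, 0.59, 0.59, 0.60, 0.60 and 0.61. Just outside it on the lower side were ZNF107, B3GALNT2, GNB4, IVD and ZNF92, whose smaller log2 ratios had sizes of 0.58, 0.58, 0.57, 0.57 and 0.57. LZTS3 was just outside on the higher side, at 0.57. B3GALNT2, a glycosyltransferase gene, had ratios of -0.58 and -0.95, larger on average than those of ID1, so the order near the limit does not separate these genes.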

How the data were processed

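RNA from 4 cultures was measured on 1 Affymetrix array each, of 54675 probe sets. The deposited intensity values are linear MAS5 signals. The tool is named, with no version, in the submitters' processing notes. Each array has a trimmed mean of 150.02 without its lowest and highest 2%. No detection calls or scanner files were used here, and the number of arrays limits the precision.

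Log2 of the deposited signal was used as it stood, with 14 zeros set to 0.1. Platform annotation named 41097 probe sets with exactly 1 symbol, 1801 with several and 11777 with none listed. Of the first, 41043 were updated through Entrez identifiers. Each of 19775 genes took its brightest probe set by mean log2 signal. Genes were kept from the probe set median upwards (a signal of 15.36), 12056 in all, and 7752 had a mean signal of at least 110. A call needed 1.5-fold in the same direction in both pairs, with no test. The alternatives were quantile, cyclic loess (limma 3.58.1, R 4.3.3) and median scaling, a pseudocount of 16, other probe set rules, folds and filters, and a limma fit with the pairs as replicates.

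Named genes were RUVBL1, RUVBL2, the 40 lower and 20 higher calls with the largest smaller-pair ratio, called list members, the 6 genes nearest the limit on each side, opposite calls and up to 4 uncalled members per list. Other called genes, further list members, family members and role groups were named after their values were seen. The comparison and the gene lists were chosen with earlier results of these data known. The transcript that the p53 shRNA targets is not reported here. Promoter windows are from the RefSeq table.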

Additional observations from a re-analysis of the deposited data

Results flagged for a closer look

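GOLGA8N, a golgin gene with near-identical copies, was the 1 bright gene past 1.5-fold in both pairs in opposite directions. Its signal went from 183.4 to 111.9 with control shRNA, a log2 ratio of -0.71, and from 84.0 to 129.4 with p53 shRNA, a ratio of 0.62. The difference between the backgrounds was not tested, since each group is 1 array. Its probe set is of a type that can bind several transcripts, and the count of such genes was 0 without those types and 0 with a pseudocount of 16. With median centring the count was 1, but that gene was not GOLGA8N.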

How the results depend on the processing

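Counts depend on the rule more than on the scaling. Lower calls among bright genes, 85 as deposited, were 5 at 2-fold, 259 in the p53 shRNA pair alone and 0 by limma. Higher calls, 14 as deposited, were 3 with median centring, 83 with the mean over probe sets, 0 at 2-fold, 49 and 127 in the control shRNA pair and the p53 shRNA pair alone, and 0 by limma. Opposite calls were 0 with a pseudocount of 16, without cross-hybridizing types and at 2-fold, and 88 with the mean over probe sets. Among all genes kept, 149 lower calls became 249 with median centring, 99 with the pseudocount, 14 at 2-fold, 466 and 641 in single pairs, 735 without a filter and 0 by limma. The 140 higher calls became 75 with quantile, 77 with loess, 54 with median centring, 31 with the pseudocount, 266 with the mean over probe sets, 15 at 2-fold, 511 and 778 in single pairs, 1186 without a filter and 0 by limma. Limma gave 1739 genes kept at an unadjusted p of 0.05. The pair correlation was 0.196 with the mean over probe sets. The RUVBL1 mean log2 ratio ran from -2.43 to -2.06 over the alternatives that could measure it, and its probe set is itself of a cross-hybridizing type. Of the 85 lower bright genes 80 were called after quantile, 83 after loess and 42 with the mean over probe sets. That mean turned TMED3 to 0.48, CX3CR1 to 0.63, CGGBP1 to 0.068, THBS1 to 0.19 and SNTB2 to -0.43. Without cross-hybridizing types PPP1R11 was at 0.49 and AOPEP at -0.0093. The mean takes in probe sets with signals below 15.36 for each of those 5 genes. Without cross-hybridizing types PPP1R11 rests on a probe set at 10.9 and AOPEP on one at 253.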
